A study of Homo sapiens with 4 samples.

Results

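The 10 genes of the NF-kappaB system described here were followed in H3K27ac HiChIP loop lists of M14 cells: the subunit genes NFKB1, NFKB2, RELA and RELB, the inhibitor genes NFKBIA and TNFAIP3, and the target genes BIRC3, TRAF1, CXCL8 and IL6. A loop was taken as belonging to a gene when a GENCODE transcript start of that gene on hg19 lay inside one of the loop's 5 kb anchors. By this rule the WT list held 14 loops at these 10 genes of 27289 in all, and the STAG2-KD list held 19 of 25621. Of the 42529 different loops in either list, 27 belonged to the 10 genes.

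M14 is a human melanoma cell line, and the cells of both groups carried a short hairpin RNA against STAG2, a cohesin subunit, that doxycycline switches on. The STAG2-KD cells had received doxycycline for 5 days and the WT cells had not, so doxycycline itself and the loss of STAG2 cannot be told apart in this comparison. HiChIP joins pieces of chromatin that lie near each other in the nucleus and then keeps those that carry a chosen mark, here H3K27ac, which is found at active promoters and enhancers. The labels described 2 samples per group, but 1 loop list per group was analysed, without read counts, so the depth behind each loop is unknown and no difference had a replicate check.

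NF-kappaB is a family of dimeric transcription factors that bind short DNA elements called kappaB sites. In resting cells the inhibitor IkappaB-alpha, the product of NFKBIA, holds the dimers in the cytoplasm, and signals from cytokine receptors lead to its destruction. The freed dimers then switch on genes for cytokines, for survival factors and for their own inhibitors, among them NFKBIA and TNFAIP3, so that the response limits itself. In melanoma the pathway is known for its link to secreted cytokines such as the products of CXCL8 and IL6.

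The DNA in front of these genes is shown first, because kappaB elements are the sites that NF-kappaB dimers bind. The kappaB consensus was searched on both strands in the 250 bases before the principal (Ensembl canonical) start of each gene in the GRCh37 sequence. It matched at 7 of the 10 genes, with 11 matches in all, and at 5.9% of all 18971 protein-coding promoters searched. NFKB2, RELB, TNFAIP3 and BIRC3 each had a pair of matches, which did not overlap each other, and NFKB1, NFKBIA and IL6 each had 1. RELA, TRAF1 and CXCL8 had none, which says only that these letters are not in this window. The genes were chosen for their known roles, so the share is a description. The matches outside BIRC3 and NFKBIA are printed in capitals, 5′ to 3′ on the strand of the gene, within 30 bases of GRCh37:
NFKB1 (chr4:103422457-103422486, plus strand, match at -49 to -40 from the start): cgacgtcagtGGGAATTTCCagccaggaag
NFKB2 (chr10:104155276-104155305, plus strand, -176 to -167): aacccccaccGGGGCTTCCCggattctcct
NFKB2 (chr10:104155431-104155460, plus strand, -21 to -12): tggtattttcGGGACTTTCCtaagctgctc
RELB (chr19:45504581-45504610, plus strand, -131 to -122): gtgacgcgtgGGGGTTTTCCcgttccccag
RELB (chr19:45504653-45504682, plus strand, -59 to -50): cggcggcgccGGGGAATTCCgccgccccgc
TNFAIP3 (chr6:138188319-138188348, plus strand, -67 to -58): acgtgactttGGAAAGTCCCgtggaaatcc
TNFAIP3 (chr6:138188331-138188360, plus strand, -55 to -46): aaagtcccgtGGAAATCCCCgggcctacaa
IL6 (chr7:22766736-22766765, plus strand, -73 to -64): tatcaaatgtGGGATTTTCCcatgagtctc

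BIRC3 and NFKBIA are shown with their complete windows from -250 to -1, because their loop counts differed between the lists in opposite directions and no annotated UTR reaches into these windows. Capitals mark kappaB matches, all of which read on the strand opposite to the gene:
BIRC3 (chr11:102187965-102188214, plus strand): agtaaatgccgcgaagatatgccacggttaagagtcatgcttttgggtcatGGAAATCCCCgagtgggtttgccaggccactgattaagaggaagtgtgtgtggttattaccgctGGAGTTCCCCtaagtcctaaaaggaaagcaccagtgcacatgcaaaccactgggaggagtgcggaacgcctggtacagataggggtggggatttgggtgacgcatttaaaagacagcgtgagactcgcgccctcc
NFKBIA (chr14:35873956-35874205, minus strand): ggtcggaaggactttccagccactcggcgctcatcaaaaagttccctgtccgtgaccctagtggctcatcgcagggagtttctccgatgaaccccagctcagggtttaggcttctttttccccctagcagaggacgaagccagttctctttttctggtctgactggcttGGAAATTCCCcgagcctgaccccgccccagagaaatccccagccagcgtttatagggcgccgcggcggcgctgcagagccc

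All 10 genes had a loop in at least 1 list, beside 44.5% of 19222 autosomal protein-coding genes. Of 58 further autosomal genes of the pathway, described below, 51.7% had one. Both sets of genes were chosen with earlier results of these data known, so these shares are descriptions only. In the WT list 8 of the 10 genes had a loop, and in the STAG2-KD list all 10 had one. The genes without a WT loop were TRAF1 and CXCL8, and 12.3% of the 8562 protein-coding genes with a loop likewise had loops in the STAG2-KD list alone. None of the 10 genes had loops in the WT list alone, a pattern found in 17.3% of those 8562 genes.

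The STAG2-KD list held more loops at 5 of the genes, NFKB1, BIRC3, TRAF1, CXCL8 and IL6, and 34.4% of protein-coding genes with a loop lay on that side. The WT list held more at both inhibitor genes, NFKBIA and TNFAIP3, a side on which 43.5% of protein-coding genes lay. NFKB2, RELA and RELB had equal counts, but with starts within 5 kb of an anchor RELB had 3 WT and 6 STAG2-KD loops and RELA 2 and 1. Of these RELB loops, 2 in WT and 5 in STAG2-KD lay at chr19:45540001-45545000. That anchor holds a start of CLASRP and lies 40 kb from the RELB anchor. A difference of 2 or more loops in favour of STAG2-KD was found at BIRC3, CXCL8 and IL6, and at 14.1% of protein-coding genes with a loop. In favour of WT it was found at NFKBIA, and at 18.3% of those genes. The differences of 2 did not all hold under other rules. With starts within 5 kb of an anchor BIRC3 had 2 WT and 3 STAG2-KD loops. With only the earlier 50% of each chromosome's lines in both lists, BIRC3 and CXCL8 each had 0 and 1 and IL6 had 1 and 2. What the order of lines stands for is not given, so the earlier lines are not known to be the stronger loops. The median difference, STAG2-KD minus WT, was 0.5 loops over the 10 genes and 0 over the 8562. The median count per gene was 1 in WT and 2 in STAG2-KD for the 10 genes, and 2 in both lists for all protein-coding genes with a loop.

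**Figure D1:**
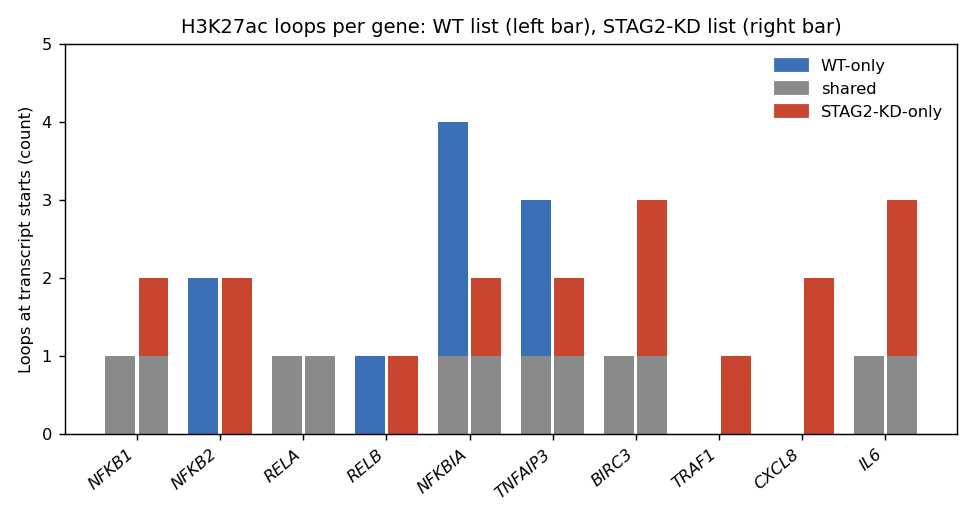
Number of loops at the transcript starts of each gene (vertical axis, count) in the WT list (left bar) and the STAG2-KD list (right bar), split into loops found in both lists (grey), WT-only loops (blue) and STAG2-KD-only loops (red). NFKBIA had 4 loops in the WT list and 2 in the STAG2-KD list, CXCL8 had 0 and 2, and BIRC3 and IL6 each had 1 and 3.

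A loop was counted as shared when its left and its right anchor bin matched exactly. Of the 27 loops, 6 were shared by this rule, while 8 stood in the WT list alone (WT-only) and 13 in the STAG2-KD list alone (STAG2-KD-only). Shared loops made up 42.9% of the WT loops of the 10 genes (95% exact Clopper-Pearson interval 17.7 to 71.1) and 31.6% of their STAG2-KD loops (12.6 to 56.6). At the starts of all other protein-coding genes 41.2% of 15161 WT loops (40.4 to 42.0) and 43.4% of 14366 STAG2-KD loops (42.6 to 44.3) were shared. The intervals of the 10 genes, which cover the counting of loops only, include both values. A shared loop was found at 6 genes, NFKB1, RELA, NFKBIA, TNFAIP3, BIRC3 and IL6, with 1 loop each. Of the 8 genes with loops in both lists, NFKB2 and RELB had no shared loop, as had 21.1% of the 6024 protein-coding genes with loops in both.

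The subunit genes were compared first. NFKB1 encodes the precursor of p50, a subunit that lacks an activation domain of its own. Its principal start lies in the anchor chr4:103420001-103425000, which carried 1 loop in WT and 2 in STAG2-KD. The shared loop ran 105 kb in the direction of transcription to chr4:103525001-103530000, and the STAG2-KD-only loop ran 35 kb to chr4:103455001-103460000. Both partner anchors lie within NFKB1 itself and hold further annotated NFKB1 starts, so these loops stayed inside the gene. They were the only loops with both anchors within 250 kb of the NFKB1 start, which made this the emptiest of the 10 neighbourhoods.

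NFKB2 encodes the precursor of p52, the subunit of the non-canonical branch. It had 2 loops in WT and 2 in STAG2-KD, and none in common. The WT loops ran 30 kb to chr10:104180001-104185000, at starts of CUEDC2, FBXL15 and PSD, and 245 kb upstream to chr10:103910001-103915000, at a start of NOLC1. The STAG2-KD loops ran 105 kb to chr10:104260001-104265000, at starts of ACTR1A and SUFU, and 200 kb to chr10:104350001-104355000, at a further start of SUFU, a negative regulator of Hedgehog signalling. Thus each loop led to another promoter, and the promoters differed between the lists. All 4 partner anchors were used in both lists, with 4 and 4 loops at NOLC1, 4 and 2 at CUEDC2, 5 and 6 at ACTR1A and 2 and 2 at the distal SUFU start, WT first. The principal start of NFKB2 lies 461 bases from the left edge of its bin, and the loops were split between this bin and the one before it, 1 loop per list in each.

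RELA encodes p65, the main activating subunit. Its single loop was shared and ran 20 kb to chr11:65405001-65410000, at a start of SIPA1, a regulator of the small GTPase Rap. The gene-side anchor, chr11:65425001-65430000, holds alternative starts of RELA, while the principal start lies 387 bases beyond it in a bin with no loop in either list. RELA sat in the most densely looped neighbourhood of the 10. Within 250 kb of its start there were 30 WT loops and 33 STAG2-KD loops, with 17 in common. Another measure, loops that passed over the start without an anchor in its bin, gave 8 for WT and 7 for STAG2-KD.

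RELB, the partner of p52, had 1 loop in each list from chr19:45500001-45505000. The WT loop ran 80 kb to chr19:45580001-45585000, at starts of GEMIN7 and MARK4, and the STAG2-KD loop ran 40 kb to chr19:45540001-45545000, at a start of CLASRP. The RELB start lies 278 bases from the right edge of its bin. In the STAG2-KD list the next bin, chr19:45505001-45510000, carried a loop of 75 kb to the same GEMIN7 and MARK4 anchor and thus 1 bin away from the WT loop. With a tolerance of 1 bin the WT loop counted as shared. The CLASRP anchor carried 2 WT and 5 STAG2-KD loops, and one of its STAG2-KD-only loops joined it to the GEMIN7 and MARK4 anchor.

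The inhibitor genes were the 2 with more WT loops. This order rested on the complete lists and the rule for starts: with the earlier 50% of lines NFKBIA had 1 WT and 2 STAG2-KD loops, and with starts within 5 kb of an anchor TNFAIP3 had 3 in each. NFKBIA, on the minus strand, had 4 loops in WT and 2 in STAG2-KD, all from chr14:35870001-35875000 and all on the side towards which the gene is transcribed. The shared loop ran 110 kb to chr14:35760001-35765000, at a start of PSMA6, a proteasome subunit gene. The WT-only loops ran 170 kb to chr14:35700001-35705000 in an intron of PRORP, 280 kb to chr14:35590001-35595000 at starts of PRORP and PPP2R3C, and 360 kb to chr14:35510001-35515000 at a start of FAM177A1. Bins called intergenic here and below overlap no protein-coding gene, though they can hold noncoding genes. The STAG2-KD-only loop ran 35 kb to chr14:35835001-35840000, an intergenic bin whose nearest coding start, 34.2 kb from its centre, was NFKBIA itself. The loops of NFKBIA therefore spanned 110 to 360 kb in the WT list, against 35 to 110 kb in the other.

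The partners of the WT-only loops of NFKBIA differed in what they carried. The anchors at 170 and 360 kb each carried 1 loop in WT, the one to NFKBIA, and 0 in STAG2-KD. The PRORP and PPP2R3C anchor carried 6 WT and 5 STAG2-KD loops, and its loop of 170 kb to the PSMA6 anchor was shared. The intergenic anchor at 35 kb was already present in WT, where it looped 245 kb to the PRORP and PPP2R3C anchor and not to NFKBIA. In STAG2-KD it looped 35 kb to NFKBIA and 75 kb to PSMA6.

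TNFAIP3 encodes A20, a ubiquitin-editing enzyme that shuts off signalling to NF-kappaB. It had 3 loops in WT and 2 in STAG2-KD, all from chr6:138185001-138190000 to intergenic bins upstream of the gene with no protein-coding start. The shared loop was the longest, 160 kb to chr6:138025001-138030000. The WT-only loops ran 40 kb to chr6:138145001-138150000, where the long noncoding RNA gene WAKMAR2 has a start, and 55 kb to chr6:138130001-138135000. The STAG2-KD-only loop ran 65 kb to chr6:138120001-138125000, an anchor with no WT loop. The WT loop of 55 kb had a counterpart in STAG2-KD 1 bin away, a loop of 50 kb from chr6:138180001-138185000 to the same partner. With a tolerance of 1 bin this WT loop counted as shared too. The STAG2-KD-only loop of 65 kb lay 2 bins from the WT loop of 55 kb, with the same gene-side anchor. With a tolerance of 2 bins it counted as shared.

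**Figure D2:**
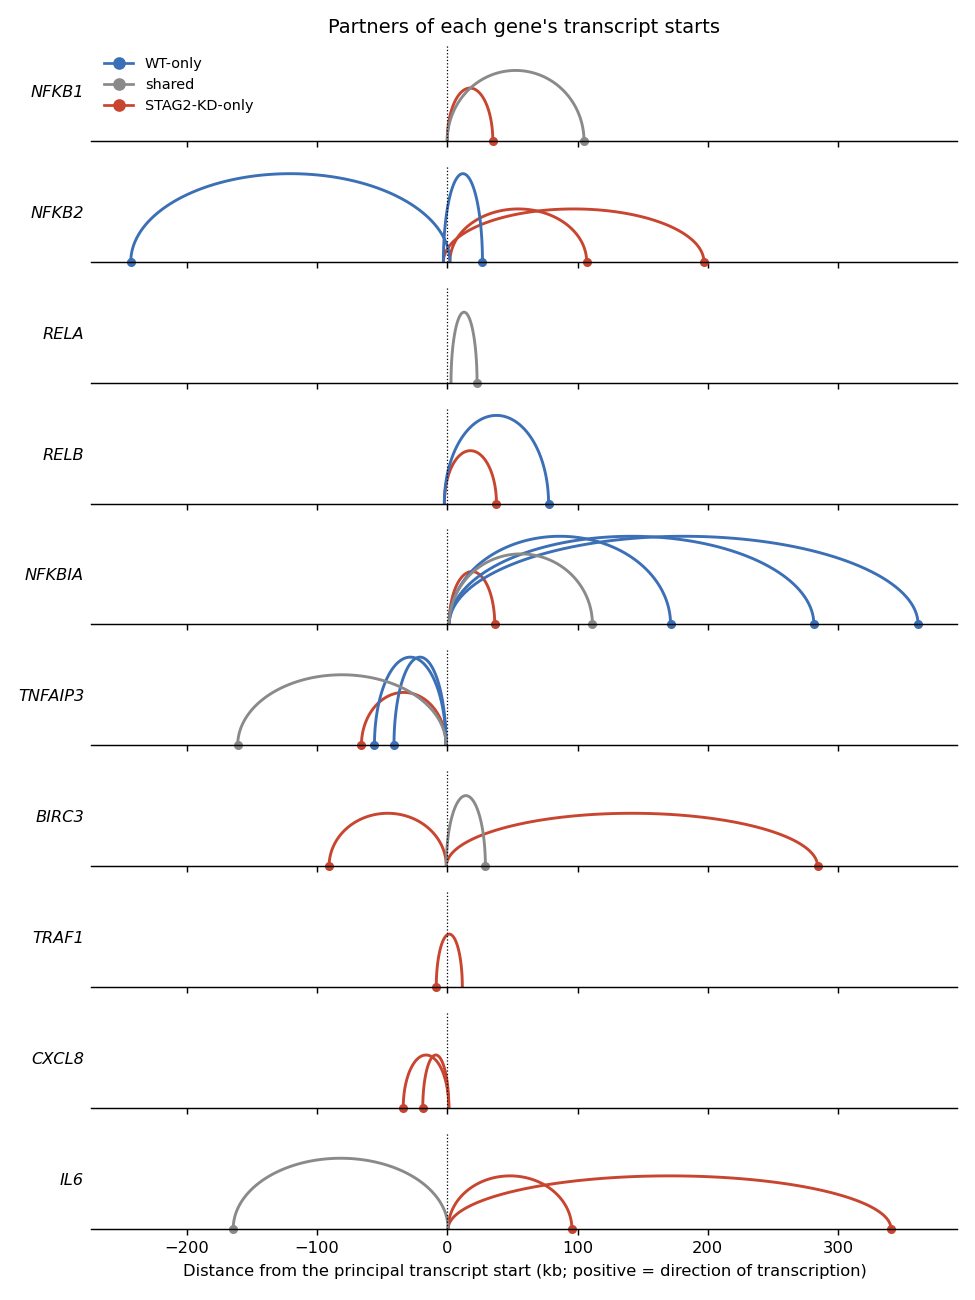
Loops of the 10 genes drawn as arcs from the gene-side anchor to the partner anchor (dots), by distance from the principal transcript start in kb, with positive values in the direction of transcription. Shared loops are grey, WT-only loops blue and STAG2-KD-only loops red, and arc height only separates these classes. NFKBIA partners lay up to 360 kb away for WT loops and up to 110 kb for STAG2-KD loops, all TNFAIP3 partners lay upstream, and BIRC3 and IL6 had distant partners at 285 and 340 kb in STAG2-KD alone.

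Among the targets, BIRC3 encodes cIAP2, an inhibitor of apoptosis that also acts as a ubiquitin ligase in receptor complexes. It had 1 loop in WT and 3 in STAG2-KD, all from chr11:102185001-102190000. The shared loop ran 30 kb to chr11:102215001-102220000, at a start of BIRC2, which encodes the related cIAP1. One STAG2-KD-only loop ran 90 kb upstream to chr11:102095001-102100000, at one of the annotated starts of YAP1, a coactivator of Hippo signalling. The other ran 285 kb downstream to chr11:102470001-102475000 in an intron of MMP20. Both of these partners were in use in WT. The anchor at 90 kb carried 4 WT and 6 STAG2-KD loops, and the MMP20 anchor 11 and 13. A shared loop of the anchor at 90 kb ran 115 kb to chr11:101980001-101985000, where another YAP1 start lies.

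The neighbouring BIRC2 anchor held 5 WT and 11 STAG2-KD loops, a wider gap than at BIRC3. It had a shared loop of 255 kb to the MMP20 anchor. In WT, BIRC3 and the MMP20 anchor thus had BIRC2 as a common partner without a loop to each other, and in STAG2-KD the loop between them was listed as well. The wider region did not follow BIRC3, with 20 WT and 19 STAG2-KD loops within 250 kb of its start.

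TRAF1 encodes an adaptor that binds cIAP proteins at receptors of the TNF family. Its one loop, in the STAG2-KD list, ran 20 kb from chr9:123675001-123680000, which holds an alternative TRAF1 start, to chr9:123695001-123700000 in the neighbouring gene C5. The bin of the principal start carried no loop in either list. The bin chr9:123680001-123685000, which lies inside TRAF1 between the bins that hold its starts, carried 6 loops in each list, with 4 in common. With starts within 5 kb of an anchor, the count of TRAF1 was 7 in both lists, so its loop in the STAG2-KD list alone depended on the rule for starts.

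CXCL8 encodes interleukin-8, a chemokine that attracts neutrophils. It had 0 loops in WT and 2 in STAG2-KD, both upstream from chr4:74605001-74610000. They ran 20 kb to chr4:74585001-74590000 and 35 kb to chr4:74570001-74575000, both intergenic with CXCL8 as the nearest coding start. The nearer partner was an anchor in the STAG2-KD list alone. The farther one carried 5 loops in each list, and its loop of 20 kb to chr4:74590001-74595000, which ends 11286 bases before the CXCL8 start, was shared. This was the only shared loop of the farther anchor. Its WT-only loops ran 110, 120, 175 and 195 kb, past the CXCL8 bin. Besides the loop to CXCL8, its STAG2-KD-only loops ran 45 kb upstream, and 215 and 405 kb past CXCL8. Upstream chromatin of CXCL8 was therefore looped in both lists, largely to different partners, and reached the CXCL8 bin in STAG2-KD alone. The CXCL8 bin held 8 sites of MboI, the enzyme that cut the chromatin before ligation, which is the fewest of the 11 gene-side anchors and equals the 5th percentile of all anchors. Whether this affected its detection was not tested.

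IL6 encodes interleukin-6, and its anchor chr7:22765001-22770000 also holds a start of STEAP1B, so loops of the 2 genes cannot be separated here. It carried 1 loop in WT and 3 in STAG2-KD. The shared loop ran 165 kb upstream to chr7:22600001-22605000 in an intron of STEAP1B. The STAG2-KD-only loops ran 95 kb to chr7:22860001-22865000, at a start of TOMM7, a gene of the mitochondrial import machinery, and 340 kb to the intergenic bin chr7:23105001-23110000. The TOMM7 anchor carried 3 WT and 5 STAG2-KD loops, and the intergenic anchor carried 11 in both lists. This intergenic anchor looped in both lists to the upstream IL6 partner, over 505 kb, and to the TOMM7 anchor, over 245 kb. In STAG2-KD, IL6 had loops to all of these anchors, and in WT to the upstream one alone.

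The anchors of the private loops were then looked up in the other list. Of the 8 WT-only loops, all 8 had their gene-side anchor in the STAG2-KD list and 6 had their partner there too, so both anchors were present for 6 of 8. At other protein-coding starts this held for 44.7% of 8920 WT-only loops. Of the 13 STAG2-KD-only loops, 10 had their gene-side anchor in the WT list, 10 had their partner there and 8 had both, beside 46.2% of 8125 STAG2-KD-only loops at other protein-coding starts. The member counts are small and were not tested against these shares. Only the CXCL8 loop of 20 kb had neither. The gene-side exceptions were CXCL8 and TRAF1, and the partner exceptions were the NFKB1 loop of 35 kb, the TNFAIP3 loop of 65 kb and the CXCL8 loop of 20 kb.

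**Figure D3:**
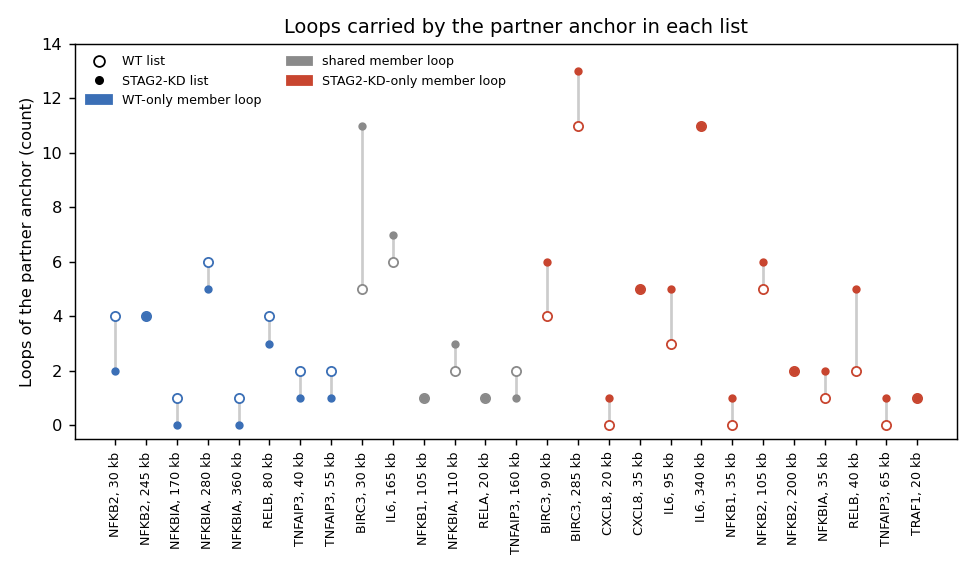
Number of loops carried by the partner anchor of each member loop (vertical axis, count), in the WT list (open circles) and the STAG2-KD list (filled circles, which cover the open ones where both are equal). Member loops are ordered by class and labelled by gene and distance. Most partners of STAG2-KD-only loops carried loops in WT as well, up to 11 at the BIRC3 partner at 285 kb and the IL6 partner at 340 kb, and the BIRC2 partner of BIRC3 carried 5 and 11.

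An anchor in common, as seen at BIRC3 and IL6, was then counted for all private loops, a count chosen after the loops had been seen. Of the 13 STAG2-KD-only loops, 4 joined anchors that both looped to a common other bin in WT, at NFKB2, NFKBIA, BIRC3 and IL6. At the starts of other protein-coding genes this held for 27.5% of 8125 STAG2-KD-only loops. Of the 8 WT-only loops, 3 joined anchors with such a bin in STAG2-KD, at NFKB2, RELB and NFKBIA, against 27.3% of 8920. Both loops to the common bin were shared at BIRC3 through BIRC2, at IL6 through the upstream STEAP1B anchor and at the NFKBIA loop of 280 kb through PSMA6. These counts are small, and nothing particular to the 10 genes was read from them.

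Partners were grouped by whether they held a protein-coding start. In WT, 8 of 14 loops led to a start of another protein-coding gene, 1 to a further start of the same gene and 5 to a bin with no such start. In STAG2-KD the numbers were 8, 2 and 9 of 19. Among STAG2-KD-only loops 5 of 13 led to another gene's start and 7 to a bin without one. Among WT-only loops these were 5 and 3 of 8. No share over loops at other protein-coding starts stood beside these small counts, so no difference between the classes was read from them. NFKB2, RELA and RELB had promoter partners alone, and TNFAIP3, TRAF1 and CXCL8 had none.

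Loop distance, taken between anchor midpoints, ran from 20 to 360 kb in WT and from 20 to 340 kb in STAG2-KD. WT loops had a median of 107.5 kb and STAG2-KD loops one of 90 kb, beside 90 and 85 kb for loops at other protein-coding starts. With the earlier 50% of lines the medians were 110 kb for WT and 35 kb for STAG2-KD. WT-only loops had a median of 125 kb, STAG2-KD-only loops 65 kb and shared loops 107.5 kb. No medians by class over loops at other protein-coding starts stood beside these, so no difference between the classes was read from them. Loops of 200 kb or more numbered 3 in each list and none was shared. In WT they were at NFKB2 and NFKBIA, and in STAG2-KD at NFKB2, BIRC3 and IL6. How often loops this long were shared at other protein-coding starts was not counted. With so few long loops, nothing particular to these genes was read from the lack of sharing. With 14 and 19 loops the 95% intervals of the medians, from the order of the values, were wide, at 30 to 245 kb in WT and 35 to 160 kb in STAG2-KD.

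The neighbourhoods of the genes were counted next, with the loops at their starts included. Within 250 kb on each side of the principal start, there were 103 WT loops over the 10 genes and 104 STAG2-KD loops, with 44 in common. Without the loops at the genes' own starts, there were 91 WT and 87 STAG2-KD loops, with 38 in common. With all loops, the STAG2-KD list held more in 5 of the windows, the WT list in 4 and 1 was equal. At NFKBIA the window held 2 WT and 3 STAG2-KD loops, the opposite order to the gene itself. Of its WT loops, 2 reach beyond the window. In addition, the window holds a STAG2-KD-only loop of 75 kb between the PSMA6 anchor and the intergenic anchor, which is not a loop of NFKBIA. At IL6 it held 8 in each list, and at CXCL8 6 and 7. Loops that passed over the principal start numbered 29 in each list.

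**Figure D4:**
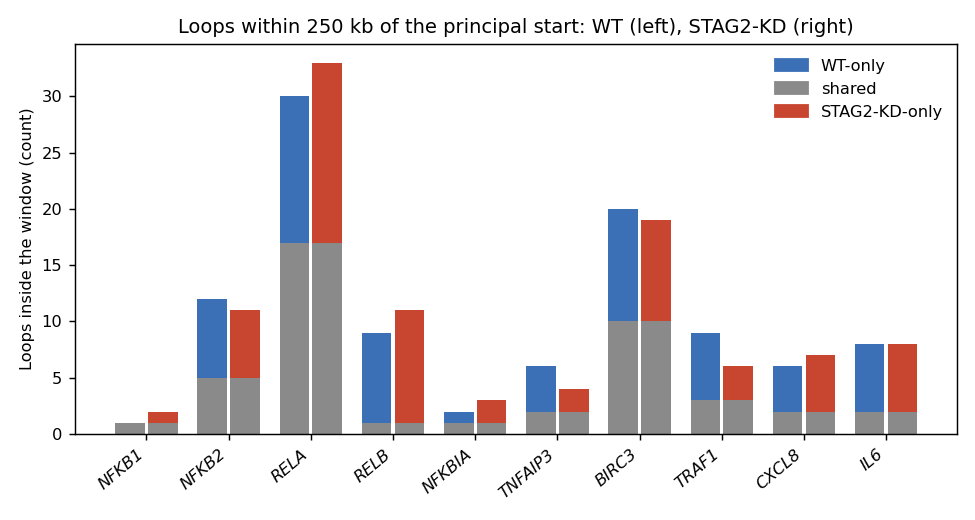
Number of loops with both anchors within 250 kb of each gene's principal start (vertical axis, count) in the WT list (left bar) and the STAG2-KD list (right bar), with shared loops in grey, WT-only loops in blue and STAG2-KD-only loops in red. The windows ranged from 1 and 2 loops at NFKB1 to 30 and 33 at RELA.

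CTCF, which stops cohesin on DNA, has a known motif, and a core of it, CCANNAGNNGGC, was searched on both strands of the anchors. It was found in 8 of the 38 anchors of these loops and in 17.8% of the 30601 different anchors in either list. On the gene side the core was present at RELA, NFKBIA, BIRC3 and IL6 and not at the other genes. The partner side held it at the NOLC1 partner of NFKB2, the FAM177A1 partner of NFKBIA, the distal partner of NFKB1 and the farthest partner of TNFAIP3. A match is no evidence of binding. Sites of MboI numbered 8 to 25 per gene-side anchor with a median of 13, beside a median of 14 over all anchors.

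The rest of the pathway was described from a list of 60 further genes. IRAK1 and IKBKG are X-linked, and no loop on that chromosome was listed. Of the other 58, 30 had a loop in either list (51.7%, beside 44.5% of all autosomal protein-coding genes). Of these 30, 12 were higher in STAG2-KD, 11 higher in WT and 7 equal. Over all protein-coding genes with a loop 34.4% were higher in STAG2-KD and 43.5% in WT. A difference of 2 or more loops was found at 5 genes in favour of STAG2-KD and at 5 in favour of WT. Over all protein-coding genes with a loop these shares were 14.1% and 18.3%. The median difference of the pathway genes was 0. The summed counts per gene were 100 in WT and 103 in STAG2-KD. The rest of the pathway therefore showed no common direction, while all protein-coding genes with a loop lay more often on the WT side. The counts were not tested against those shares.

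By role, receptors had loops at 5 of 8 genes. Counts by role are small and were not tested against the 44.5% of all autosomal protein-coding genes. Genes named from here on beyond the most looped, those that differ by 4 or more and those in 1 list alone were chosen after their values were seen. The most looped gene of the list in both lists was TNFRSF1A, the main TNF receptor, with 12 WT and 13 STAG2-KD loops, 6 of them in common. TNFRSF12A had 7 and 8. Adaptors and ubiquitin ligases had loops at 7 of 9 autosomal genes. The largest difference of the list was at BIRC2, with 5 WT loops, 12 STAG2-KD loops and 4 in common over all of its starts. TRAF2, the partner of TRAF1 at TNF receptors, had 8 and 6, while TRAF3, TRAF5 and RIPK1 had loops in WT alone. Kinases had loops at 4 of 6 autosomal genes, with 6 and 7 at MAP3K14, which starts the non-canonical branch, and 4 and 3 at IKBKB. CHUK, which encodes the kinase IKK-alpha, had 0 and 1.

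Other IkappaB family genes gave mixed counts. NFKBIZ, an atypical nuclear member, had 5 WT loops and 1 STAG2-KD loop, none of them in common. NFKBIE had 3 and 1, NFKBIB 4 and 4, NFKBID 5 and 6 and BCL3 2 and 4. REL, the remaining subunit gene, had no loop in either list. TNIP1, which encodes a partner of A20, had 0 and 3. Thus 3 of the 5 looped IkappaB family genes of this list did not have the order seen at NFKBIA and TNFAIP3.

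Targets had loops at 8 of 25 genes, and deubiquitinases and their partners at 1 of 4. ICAM1, an adhesion molecule of the endothelium and of melanoma cells, had 10 loops in each list, 6 of them in common. CFLAR, an inhibitor of caspase activation, had 7 WT and 3 STAG2-KD loops, 1 of them in common. BCL2A1, a survival gene of the melanocyte lineage, had 0 and 2, and CCL20 had 0 and 1. No loop was listed at CXCL1, CXCL2, CXCL3, CXCL10, IL1A, IL1B or TNF, so loops at CXCL8 in STAG2-KD were not accompanied by loops at the starts of the other CXCL genes on the list.

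**Figure D5:**
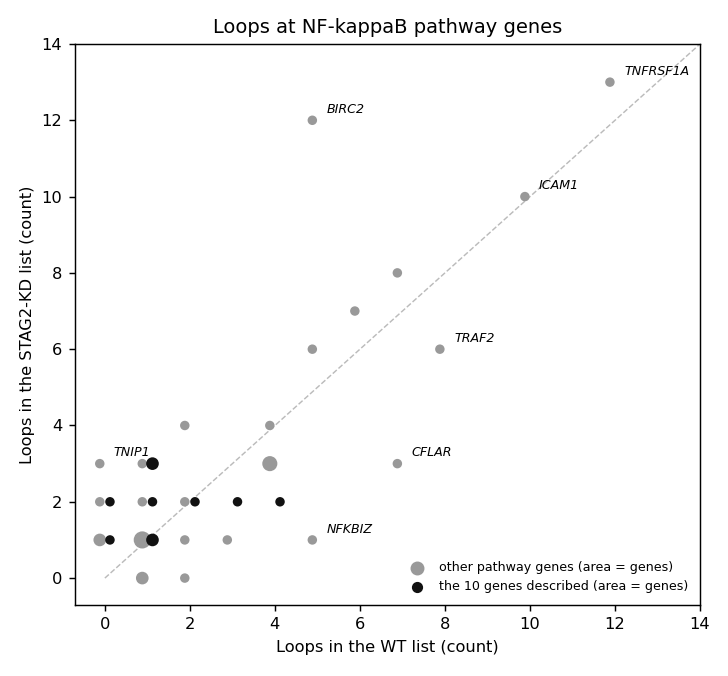
Loops per gene in the WT list (horizontal axis, count) and the STAG2-KD list (vertical axis, count) for the 10 genes described (black) and the other pathway genes with a loop (grey), with point area proportional to the number of genes, a small sideways offset between the 2 sets and a dashed line at equal counts. BIRC2, with 5 and 12 loops, lay farthest above the line, and CFLAR, with 7 and 3, and NFKBIZ, with 5 and 1, farthest below it.

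Loops were also counted at marker genes of cell types. Melanocyte genes had loops at 5 of 6, beside 44.5% of all autosomal protein-coding genes, and TYR had none. MITF had 7 WT and 2 STAG2-KD loops, PMEL 7 and 4, DCT 3 and 0, MLANA 3 and 5, and SOX10 4 in each, so 5 of the 6 had a WT loop and 4 a STAG2-KD loop. Of markers of other cell types, KRT5, PTPRC and CDH5 had none, KRT14 had 2 loops in each list and CD3E had 1 in WT and 3 in STAG2-KD. Since markers of other cell types had loops too, these counts do not establish the identity of the cells.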

How the data were processed

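Per the study's methods, the authors used HiC-Pro for alignment (hg19), hichip-peaks for H3K27ac peaks and FitHiChIP for loops, and compared the groups with diffloop, whose results were not used here. For diffloop the methods state an FDR limit and a filter on loops seen in 1 replicate alone. Whether the deposited lists carry these, whether they merge replicates, and the tool versions are not given in the sources used here. The deposited lists hold genome positions in base pairs, in 3 columns without a header (chromosome, start of the left anchor, end of the right anchor), and no count, score or q-value. A loop missing from a list can thus be one just short of the caller's limit.

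Each anchor was taken as 5 kb wide and positions are printed counted from 1. Line ends of the STAG2-KD list were cleaned. No anchor passed a chromosome end in GRCh37. Starts of transcripts were those of GENCODE (release 44, lifted to GRCh37), and every annotated start of a gene counted. Groups followed the titles of the 4 samples. The STAG2-KD and WT lists, filed under replicate 1, were compared as 1 measurement each, so no test and no p-value was computed. The percentages of shared loops in the complete lists carry exact 95% binomial intervals, and the other percentages carry none. Matching was tested on simulated lists with planted loops. Computation used Python 3.11.15, numpy 2.4.6, pandas 2.3.3, scipy 1.17.1 and matplotlib 3.10.9.

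The genes, the pathway list and the alternatives were chosen with earlier results of these data known. Of the pathway list, the text names the 3 genes with the most loops in each list, every gene with a difference of 4 or more, and those with loops in 1 list alone; the others named were chosen after their values were seen. PECAM1, a planned endothelial marker, was not matched to the annotation and was not used here.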

Additional observations from a re-analysis of the deposited data

How the results depend on the processing

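No paired analysis was possible because a single loop list stood for each group, and no replicate could be left out. Of 62 values under alternatives for the main counts, shares and distances, 53 stayed within 1.5 times the count or inside the interval of the value, and 9 moved. Not all of the 53 could move: no loop of these genes exceeded 360 kb, so a limit of 1 Mb changed nothing. Starts of protein-coding transcripts alone also changed no value. Shares and medians were judged against wide intervals. With the earlier 50% of lines the shared part was 28.6% in WT and 18.2% in STAG2-KD, and both counted as unmoved. The tally is thus no measure of robustness. The count of the 250 kb windows without the genes' own loops was added after seeing the data and is not among the 62. With starts within 5 kb of an anchor, where more bins qualify by construction, WT held 25 loops and STAG2-KD 32, of which 11 were shared, 14 WT-only and 21 STAG2-KD-only. With the earlier 50% of each chromosome's lines, where fewer loops remain, WT held 7 and STAG2-KD 11, with 2 shared and 5 WT-only. The STAG2-KD list held more loops at these genes than the WT list under each alternative run. This order was partly fixed in advance: the 1 Mb limit and protein-coding starts changed neither count, and scaling could only lower the WT count. All alternatives used the same lists, so they are no replicate check. For anchors within 2 bins, 6 loops were WT-only and 12 STAG2-KD-only. With the principal start alone, RELA and TRAF1 had no loop in either list, and 4 genes had more STAG2-KD loops. Scaled for the larger WT list, the WT count was 13.1. The earlier lines also gave the STAG2-KD loops a median of 35 kb, at the edge of its interval. For single genes 21 of 100 values moved.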
